A study of Drosophila melanogaster with 12 samples.

Results

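The genes described here prepare chromosomes for replication and supply what replication consumes. They are 4 subunits of the origin recognition complex (Orc1, Orc2, Orc5, Orc6), the licensing factor dup, its inhibitor geminin, the transcription factor E2f1, the sliding clamp PCNA, and the ribonucleotide reductase subunits RnrL and RnrS. They were chosen by function, with earlier results of these data known. Probes were taken whose symbol in the platform's probe-to-gene table is 1 of these 10 names. That table named 1 probe each for Orc1, Orc2, Orc5, dup, E2f1, PCNA and RnrL, 7 genes among 11980 named genes in all; Orc6, geminin and RnrS were not analysed here. All 7 had enough ratios to be tested.

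The series used RNA from 50 to 100 cells per sample, a population of neuroblasts (neural stem cells) and ganglion mother cells (GMCs, their daughters) of the Drosophila melanogaster ventral nerve cord at embryonic stage 11. The 6 mutant samples were homozygous pros17/pros17, a mutant genotype of prospero. The 6 samples called wildtype were pros17/TM3-KrGFP, so both groups carried the pros17 allele and the comparison is of homozygous with heterozygous animals. Each sample shared a 2-colour array with a common reference made from w1118 embryos, about 30 whole animals at stages 10 to 12. Cells were in Cy3 on arrays 1 to 3 of each group and in Cy5 on arrays 4 to 6. Nothing in the labels ties a group's samples to separate embryos, so the p-values describe the spread among these samples, which may include technical variation.

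Values are log2 ratios, read as cells over reference. The labels do not state this direction. It is likely because the neuroblast genes dpn, ase and wor were above 0 on all 12 arrays and pnr, a gene of dorsal epidermis and heart, was below 0 on all 12. Other markers were less clear. Of neuroblast genes, mira and insc were above 0 on 8 arrays and klu on 7. The mutated gene pros was above 0 on the 6 wildtype arrays and below 0 on the mutant arrays. Of non-neural genes, Col4a1 was above 0 on 12 arrays, SPARC and hkb on 11 and twi on 10, whereas htl and cad were above on 0. Arrays of opposite dye orientation correlated at 0.515 to 0.838, so ratios had been turned to 1 direction before deposit. Ratios per array numbered 8421 to 10030, and 8165 rows (7056 named genes) had at least 4 ratios in each group. The mutated gene, pros, averaged -2.99 ± 0.69 in the mutant and 2.17 ± 0.99 in wildtype (SD, n = 6 each), with no overlap. Spot intensities were not used here, so the signal behind each ratio is unknown, and the number of arrays limits the precision.

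Before a cell can enter S phase, the origin recognition complex binds DNA and, with Cdc6 and the Cdt1 protein (dup in the fly), loads the MCM helicase; Geminin binds Cdt1 and prevents loading a second time. E2F with its partner Dp turns on genes needed for S phase, among them PCNA, Orc1 and the ribonucleotide reductase genes in Drosophila, and the Rbf proteins hold it back. Neuroblasts keep dividing, whereas a GMC divides once more into neurons or glia, and Prospero is known to limit cell cycle genes in the GMC.

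All 7 genes were above the whole-embryo reference in both groups and had a higher mean in the mutant than in wildtype. RnrL rose, with a fitted difference of 1.46 (2.75-fold). The other 6 genes did not pass the threshold, with differences from 0.87 for Orc5 to 1.55 for Orc2. Each difference is the mutant mean less the wildtype mean in log2 units, fitted by limma over all rows with a term for the dye of the cells. The threshold was a Benjamini-Hochberg adjusted p of 0.05. The call of RnrL, 1 of 7 genes, stands against 1.58% of all rows called higher in the mutant and 3.37% called lower. The median difference of the 7 was 1.14, beside -0.13 over all rows. At an unadjusted p under 0.05, 7 of 7 were higher, as were 9.69% of all rows. In a pool of cells, a larger share of cells of a type and more RNA per cell cannot be told apart.

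**Figure D1:**
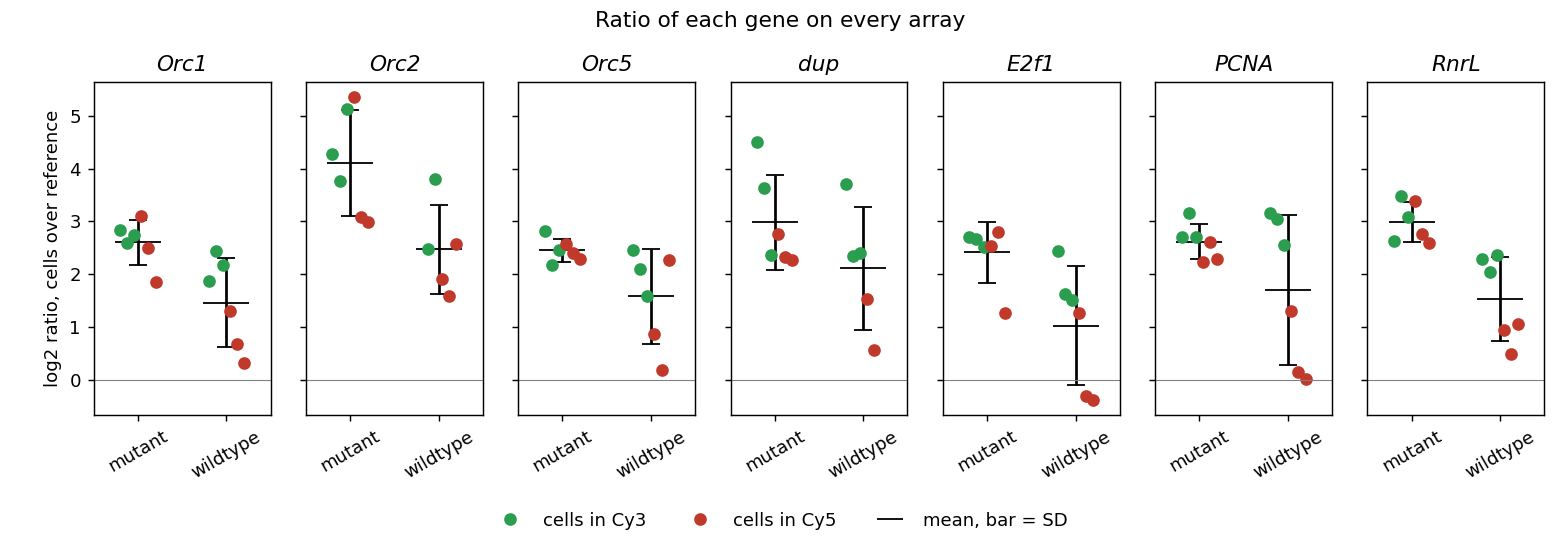
Log2 ratio of cells over reference (vertical axis) for each of the 7 genes on every array, mutant on the left and wildtype on the right of each panel. Points are arrays, green with the cells in Cy3 and red with the cells in Cy5, and black marks are group means with SD. RnrL is the gene whose groups do not overlap, and wildtype points in Cy5 lie lowest in most panels.

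RnrL encodes the large subunit of ribonucleotide reductase, the enzyme that makes deoxyribonucleotides from ribonucleotides. On the mutant arrays its ratio was 2.63, 3.48 and 3.09 in Cy3 and 3.38, 2.77 and 2.59 in Cy5. On the wildtype arrays it was 2.29, 2.05 and 2.37 in Cy3 and 0.94, 0.49 and 1.05 in Cy5. Every mutant value lay above every wildtype value, a separation shown by 0.955% of all rows; the 3 wildtype Cy5 arrays were the lowest. The means were 2.99 ± 0.38 in the mutant and 1.53 ± 0.80 in wildtype (SD, n = 6 each). The limma difference of 1.46 (SE 0.28, 95% interval 0.84 to 2.07) had an adjusted p of 0.0189 and gave RnrL rank 143 by size among the 8165 rows, counted from the highest.

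The call of RnrL was not kept when wildtype arrays 5 and 6, or all arrays in Cy5, were left out. With the cells in Cy3 its difference was 0.83 (SE 0.32, limma adjusted p = 0.319), and in Cy5 it was 2.08 (SE 0.33, adjusted p = 0.0218). Without wildtype arrays 5 and 6 it was 1.21 with an adjusted p of 0.115. The sign was positive in each of these fits. Without a dye term the difference stayed at 1.46 with an adjusted p of 0.0516. With the replicate number as a block it was also 1.46, with a limma adjusted p of 0.0623.

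Of the origin recognition complex, Orc1 is the largest subunit and, with Orc4 and Orc5, belongs to the ATPase family within the complex. Orc1 ran from 1.85 through a median of 2.67 to 3.10 in the mutant, against 0.32, 1.58 and 2.43 in wildtype. Of the mutant arrays, 5 of 6 lay above the highest wildtype value, and mutant array 6 fell inside the wildtype range. The means were 2.60 ± 0.42 in the mutant and 1.46 ± 0.84 in wildtype (SD, n = 6 each), a limma difference of 1.14 (95% interval 0.49 to 1.79, adjusted p = 0.0512). Orc1 passed when each array was centred on its median (1.34, limma adjusted p = 0.0288), and its adjusted p was 0.113 without a dye term.

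Orc2, another core subunit of the complex, had the highest mean ratio of the 7 genes in both groups. It ran from 2.99 through 4.02 to 5.36 in the mutant. In wildtype it ran from 1.59 through 2.47 to 3.81 over 5 arrays. The groups overlapped, since wildtype array 3 exceeded 3 of the 6 mutant arrays. Wildtype array 1 was deposited at 24.4, which was read as a spot with signal in 1 channel and left out. Without that spot the limma difference was 1.55 (95% interval 0.48 to 2.62, adjusted p = 0.0823). With such spots kept it was -2.02 (adjusted p = 0.800), and with them held at 8 it was 0.71 (adjusted p = 0.665), so the sign of Orc2 rests on how this 1 spot is read.

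Orc5 ran from 2.18 through 2.43 to 2.82 in the mutant, the narrowest spread of the 7 genes (SD 0.22, n = 6). In wildtype it ran from 0.19 through 1.84 to 2.47 (SD 0.89, n = 6). Wildtype arrays 1 and 6, at 2.47 and 2.28, lay within the mutant range. The limma difference was 0.87 (95% interval 0.12 to 1.62, adjusted p = 0.140).

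The dup gene, named double parked, encodes the fly Cdt1 protein that brings the MCM helicase to origins. Its ratio ran from 2.28 through 2.56 to 4.51 in the mutant, against 0.58, 2.34 and 3.72 in wildtype, where array 6 had an exact 0 and was left out. Only mutant array 1 lay above the highest wildtype value, which came from wildtype array 1. The limma difference was 1.01 (95% interval 0.07 to 1.94, adjusted p = 0.164), and it had the highest adjusted p of the 7 genes.

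E2f1 encodes the activating E2F factor of the fly. It ran from 1.27 through 2.60 to 2.80 in the mutant and from -0.38 through 1.39 to 2.45 in wildtype. Wildtype arrays 5 and 6, at -0.30 and -0.38, were the only places where any of the 7 genes fell below the reference. Of the mutant arrays, 5 of 6 exceeded every wildtype array; mutant array 6 was low, at 1.27. The means were 2.42 ± 0.57 in the mutant and 1.03 ± 1.13 in wildtype (SD, n = 6 each), with a limma difference of 1.39 (95% interval 0.53 to 2.25, adjusted p = 0.0612). Centring each array on its median gave 1.59 (limma adjusted p = 0.0364), whereas quantile normalization gave 1.65 (adjusted p = 0.0591) and a fit without a dye term 1.39 (adjusted p = 0.131).

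PCNA, the clamp that tethers DNA polymerase to its template, had the largest change between dye orientations among the 7 genes. With the cells in Cy3 it was 2.70, 3.16 and 2.70 in the mutant and 3.15, 3.05 and 2.55 in wildtype, so these groups overlapped. With the cells in Cy5 it was 2.24, 2.61 and 2.29 in the mutant and 1.30, 0.16 and 0.02 in wildtype. By limma, the difference among Cy3 arrays was -0.07 (adjusted p = 0.944) and that among Cy5 arrays 1.89 (adjusted p = 0.0478). Over all 12 arrays it was 0.91 (95% interval 0.09 to 1.73, adjusted p = 0.154).

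**Figure D2:**
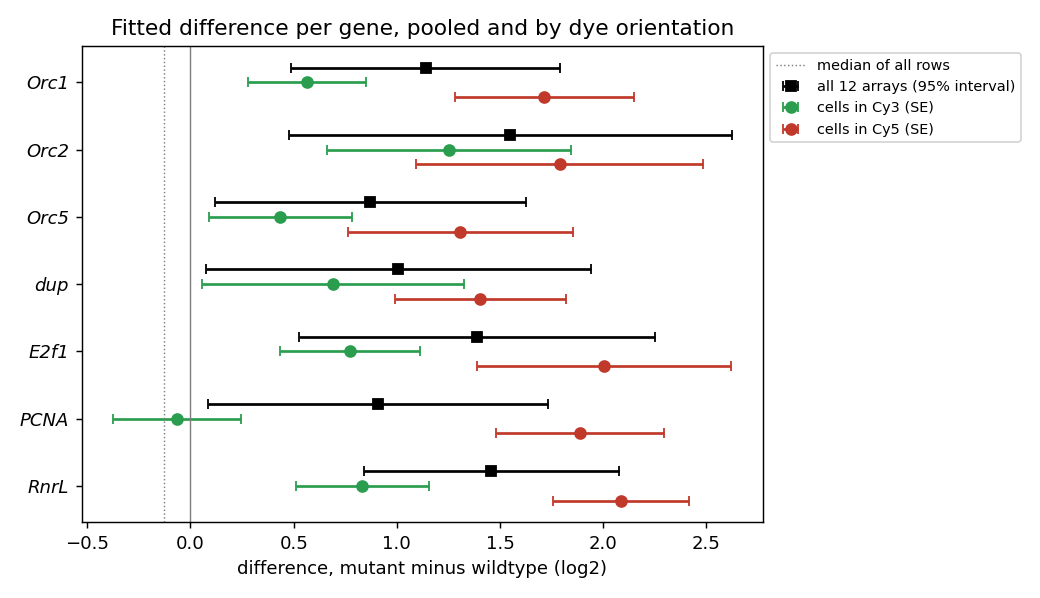
Fitted difference, mutant minus wildtype (horizontal axis, log2), for each gene over all 12 arrays with its 95% interval (black squares), with the cells in Cy3 (green, SE) and in Cy5 (red, SE). The dotted line is the median of all rows at -0.13. The Cy5 value lies right of the Cy3 value for each of the 7 genes, and PCNA in Cy3 sits at -0.07.

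The larger difference in Cy5 was shared by all 7 genes. Their Cy3 differences ran from -0.07 to 1.25 with a median of 0.69, and their Cy5 differences from 1.31 to 2.08 with a median of 1.79. Over all rows the medians were -0.13 in Cy3 and -0.09 in Cy5. The share of all rows with a larger difference in Cy5 was not computed. It was not particular to these genes, since the lists of related genes described below also had higher medians in Cy5. In Cy3 and Cy5 these were 0.22 and 0.80 for licensing partners and 0.07 and 0.64 for E2F, Rbf and Myb complexes. They were 0.47 and 1.47 for fork genes and -0.34 and 0.29 for nucleotide supply. In Cy3 0 of 7 passed in limma, where 0% of rows were called higher and 1087 rows had an unadjusted p under 0.05. In Cy5 2 of 7 passed, RnrL and PCNA, where 2.38% of rows were called higher. The mutant and wildtype arrays stood fully apart for Orc1, E2f1 and RnrL in Cy3, beside 6.08% of all rows. They stood apart for 6 of 7 in Cy5, all but E2f1, beside 14.7% of all rows. Tested itself, the difference between orientations did not pass for any of the 7 (limma interaction, adjusted p from 0.107 for PCNA to 0.842 for Orc2; 0.416% of all rows passed in either direction). At an unadjusted p under 0.05 it was larger in Cy5 for 3 of 7, namely PCNA (1.95, SE 0.50), RnrL (1.25, SE 0.44) and Orc1 (1.15, SE 0.51). The share of all rows at this unadjusted limit was not computed, so whether 3 of 7 is unusual is unknown. Dye orientation and array number, 1 to 3 or 4 to 6, cannot be told apart.

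The lowest wildtype value of each of the 7 genes came from array 5 (4 genes) or array 6 (3 genes). Cell type markers moved with it. Averaged over the 3 arrays of each kind, the median ratio of the 7 genes was 2.89 on mutant Cy3, 2.55 on mutant Cy5, 2.39 on wildtype Cy3 and 0.83 on wildtype Cy5 arrays. For 7 neuroblast markers, pros among them, the same averages were 1.68, 1.26, 1.93 and 0.32. For the neuron markers measured they were -0.09, -1.08, 0.54 and 2.38, so the wildtype Cy5 arrays were lowest in neuroblast and highest in neuron markers. Of 7 neuroblast markers, 4 rose (dpn, klu, mira and ase) and pros fell; of 5 neuron markers tested, 3 fell (nSyb, VAChT and ChAT) and elav had a difference of 0.14 that did not pass. The summed linear ratio of the 4 neuron markers measured on all 12 arrays (elav, nSyb, ChAT and VAChT) ran from 4.18 to 9.21 over mutant arrays and from 7.80 to 37.3 over wildtype arrays. That of the 7 neuroblast markers, all measured throughout, ran from 26.9 to 44.7 over mutant arrays and from 8.33 to 35.5 over wildtype arrays. These sums and the medians above include the mutated gene pros. Its log2 ratio ran from -3.95 to -2.13 in the mutant and from 0.88 to 3.29 in wildtype, so it raised the wildtype sums more. Sums and medians without pros were not computed, so their overlap and order cannot be read as those of the other markers. In Cy3 the median was lower in the mutant, whereas every marker of the list other than pros had a positive Cy3 difference. These ran from 0.39 for ase to 1.35 for mira (none passed in limma), beside -5.71 for pros. Taken singly, dpn and mira did not overlap between groups, and ase, wor, insc and klu did. The part of these markers in the differences of the 7 genes was not tested.

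Other cell types moved less evenly. Of 4 glial markers tested, 1 fell (repo), and the summed ratio of the 3 measured on all 12 arrays ran from 1.69 to 6.17 in the mutant and from 5.67 to 18.7 in wildtype. Of 4 muscle and mesoderm markers, 1 fell (htl), with sums over the 2 measured on all 12 arrays from 1.05 to 3.26 in the mutant and from 2.17 to 10.3 in wildtype. Of 6 hemocyte and fat body markers 1 rose (SPARC), the single epidermal marker tested (pnr) rose, and 0 of 4 gut and yolk markers passed in limma. The neuron marker futsch, the glial marker loco, and the hemocyte marker Hml had too few ratios to be tested. The epidermal markers shg and btl and the gut marker byn had no ratio on any array.

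**Figure D3:**
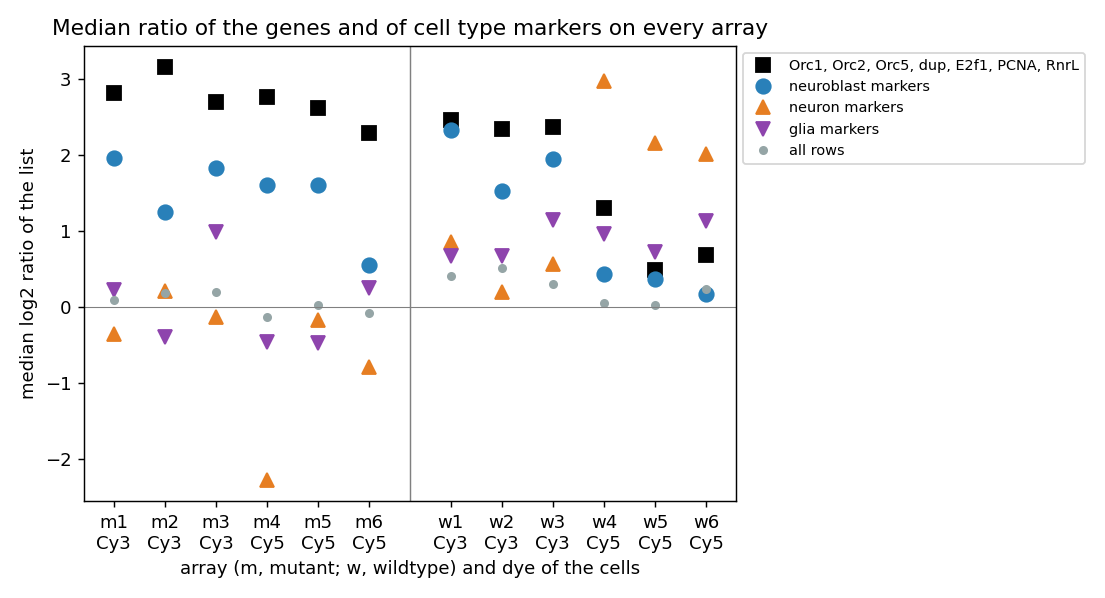
Median log2 ratio (vertical axis) of the 7 genes and of neuroblast, neuron and glia markers on each array, with the median of all rows, for mutant arrays m1 to m6 and wildtype arrays w1 to w6. On wildtype Cy5 arrays the 7 genes and the neuroblast markers are low (averages 0.83 and 0.32) and the neuron markers are high (2.38).

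Against the whole-embryo reference, all 7 genes passed in both groups. Mean ratios in the mutant were 4.10 for Orc2, 2.99 for RnrL, 2.98 for dup, 2.62 for PCNA, 2.60 for Orc1, 2.45 for Orc5 and 2.42 for E2f1 (limma adjusted p from 2.02e-07 to 1.22e-05). In wildtype the fitted means ran from 1.03 for E2f1 to 2.55 for Orc2 (limma adjusted p from 4.10e-05 to 0.00639). Among all rows, 35.3% were called higher than the reference in the mutant and 37.8% in wildtype. A ratio is relative to the reference and not an amount of transcript, so this order does not rank the genes' levels. Neighbours in the mutant order overlapped in their arrays, Orc2 included, whose lowest value of 2.99 lay below the highest of RnrL at 3.48.

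Ranked within each array by ratio, the genes kept a high place throughout the mutant group. RnrL stood between the 93.1 and 98.0 percentile of the rows measured on a mutant array, against 62.9 to 89.1 in wildtype. Orc2 stood between 97.1 and 99.8 in the mutant and between 86.3 and 96.8 in wildtype. E2f1 ranged from 84.0 to 98.1 in the mutant and from 34.7 to 89.3 in wildtype. Orc1 stood between 90.9 and 97.1 in the mutant and between 52.3 and 89.5 in wildtype. These ranks do not depend on how an array was centred. On this scale RnrL, Orc1 and, over the 5 wildtype arrays with a ratio, Orc2 had no overlap between groups, beside 2.34% of all rows. The separation of Orc2 leaves out the spot of wildtype array 1 read as having signal in 1 channel, deposited at 24.4 and so above every mutant value.

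Over both dye orientations together, the SD was smaller in the mutant for 6 of the 7 genes, all but Orc2. Within an orientation it was smaller in the mutant for 5 of 7 in Cy3 (all but dup and RnrL) and 4 of 7 in Cy5 (all but Orc1, Orc2 and RnrL). The pooled median SD of the 7 was 0.42 in the mutant and 0.89 in wildtype, beside 0.51 in the mutant and 0.69 in wildtype over all rows.

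Other genes of the same processes were listed by function, with earlier results of these data known. Of 71 listed, 53 were tested; 6 rose, 0 fell and 47 did not pass, beside 4.95% of all rows called in either direction. Above 0 were 42 of the 53 (79.2%), beside 40.7% of all rows, and their median difference was 0.62. Array centring moved the count to 21 and the Cy3 arrays alone gave 0 (limma).

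**Figure D4:**
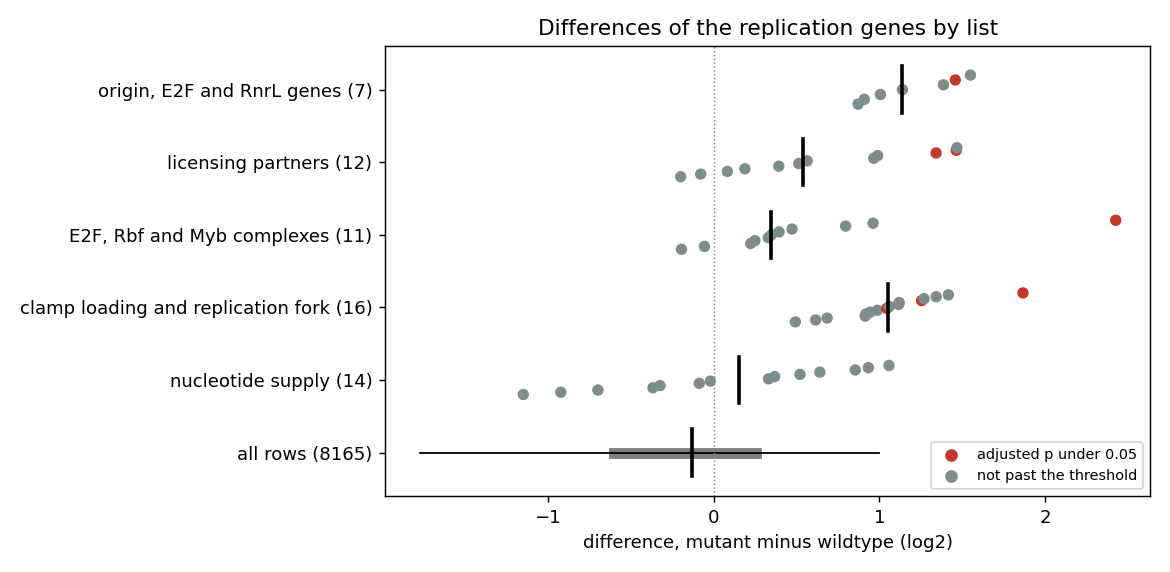
Fitted differences, mutant minus wildtype (horizontal axis, log2), of the 7 genes (top row) and of 4 lists of related genes, with the number tested in brackets. Red points passed the threshold, grey points did not, and vertical bars are medians. The bottom row shows all rows as the 5 to 95 percentile (line), the 25 to 75 percentile (thick bar) and the median of -0.13; all 16 fork genes lie above 0.

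Among licensing partners, 2 of 12 rose. These were Mcm2 (1.34, limma adjusted p = 0.0279) and Mcm5 (1.46, adjusted p = 0.0397), both subunits of the helicase that the origin complex, Cdc6 and Cdt1 load. A further helicase subunit, Mcm6, had a difference of 1.47 that did not pass (adjusted p = 0.0583). The list median was 0.54. The remaining origin subunits Orc3 and Orc4 had differences of 0.39 and 0.57 (limma adjusted p = 0.617 and 0.249), smaller than those of Orc1, Orc2 and Orc5, without a test of that contrast. Orc3 and Orc4 were named after their values were seen. Orc3 had a ratio on 4 mutant and 5 wildtype arrays. Its plain means were 2.36 in the mutant and 2.51 in wildtype, opposite in sign to its difference fitted with the dye term.

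Among E2F, Rbf and Myb complex genes with their cyclins, 1 of 11 rose and the list median was 0.35. It was CycE, whose product starts S phase and which is itself an E2F target, at 2.16 ± 0.37 in the mutant and -0.26 ± 1.26 in wildtype (SD, n = 6 each; difference 2.43, limma adjusted p = 0.0122). The next by p did not pass, namely the histone chaperone Caf1-55 (0.96, adjusted p = 0.0700) and the Myb complex subunit mip120 (0.80, adjusted p = 0.111). The E2F partner Dp had a difference of 0.40 and the repressing factor E2f2 one of -0.19 (limma adjusted p = 0.192 and 0.572; both named after their values were seen).

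Clamp loading and replication fork genes lay closest to the 7 by median. All 16 tested were above 0, with a median of 1.05, and 3 rose. They were the histone chaperone gene asf1 (1.87, limma adjusted p = 0.00939), RPA1, which encodes a subunit of the protein that coats single-stranded DNA (1.26, adjusted p = 0.0381), and elg1, which encodes a clamp-unloading factor (1.05, adjusted p = 0.0476). The other 13 did not pass.

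Nucleotide supply genes other than ribonucleotide reductase did not share a direction. Of 14 tested, 7 were above 0 and 0 passed in limma over all rows, with a list median of 0.16. At the smallest p were dnk, the deoxynucleoside kinase gene (1.06, adjusted p = 0.0583), ras, which encodes the enzyme of guanine nucleotide synthesis IMP dehydrogenase (-0.70, adjusted p = 0.0588), and Ts, the thymidylate synthase gene (0.93, adjusted p = 0.114). The median of the list's gene means lay below the reference, at -0.78 in the mutant and -0.75 in wildtype. For the 7 genes it was 2.62 in the mutant and 1.58 in wildtype. The list was split, since the means of Ts, dnk, pug and bur lay above the reference in both groups. That of Prat2 lay above it in wildtype only, and the rest lay below it in both. The genes pug, bur and Prat2 were named after their values were seen.

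The pattern of each gene over the 12 arrays was compared with all 5502 named genes measured on every array. Likeness was the root mean square difference after subtracting each gene's own mean; its median over all genes lay between 0.93 and 1.21. The gene most like RnrL was CycB3, a mitotic cyclin gene, at 0.239. The gene most like PCNA was Incenp, which encodes a subunit of the chromosomal passenger complex, at 0.225. Orc1 was closest to fd96Cb, a forkhead factor gene (0.303), Orc5 to Cdk7, the kinase that activates other cyclin-dependent kinases (0.348), and E2f1 to insv, a corepressor gene (0.353). Between pairs of the 5 genes themselves the value ran from 0.419 (Orc1 and RnrL) to 0.843 (Orc5 and PCNA). Orc2 and dup lacked 1 ratio each and were not compared.

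Among the 7 genes, Orc5 and RnrL lie on chromosome arm 2L, Orc1, dup and PCNA on 2R, and Orc2 and E2f1 on 3R. The wildtype animals carried the TM3 balancer of chromosome 3, so for Orc2 and E2f1 the chromosome background and the prospero genotype cannot be told apart. The same holds for the related genes Mcm2, Mcm5 and RPA1 on 3R and asf1 and elg1 on 3L, which rose. Of the related genes that rose, CycE alone lies elsewhere, on 2L. Among markers that passed, klu, mira, nSyb, VAChT, ChAT, repo, htl, SPARC and pnr also lie on chromosome 3, whereas dpn lies on 2R and ase on X.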

How the data were processed

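The deposited values were log2 ratios per probe, 14569 probes on each of 12 arrays. How the arrays were scanned, background-corrected or normalized is not given in the sources used here. Base 2 was read from the values: among spots with signal in 1 channel, 2 raised to the value fell at even steps, with a mean miss under 0.1 step, on 5 of 10 arrays examined; with base e or 10 this held on 0. Each deposited column had a median of 0; its centring is unknown.

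An exact 0 and a value beyond 11 in size were set to missing. Probes were named through the platform annotation (12658 with 1 symbol, 96 with several, 1815 with none here), and the RefSeq gene table changed 0 symbols. No coordinates are given because the array's build is not named. Probes of a gene were averaged. Rows with at least 4 ratios per group were fitted with limma 3.58.1 in R 4.3.3 on group and dye of the cells, with Benjamini-Hochberg adjustment over all 8165 rows. Of simulated differences of 2 (log2) in 100 rows, 70% were recovered, and of 3, 89%.

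The members and lists were chosen with earlier results of these data known. Named genes are the members, pros, list genes past the threshold or of the 3 smallest p, and the gene most like each member. Alternatives covered the dye term, missing values, centring, quantile normalization, the ratio minimum, array weights, single arrays and orientations; omitting several wildtype arrays was added after seeing the data.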

Additional observations from a re-analysis of the deposited data

Results flagged for a closer look

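Among 14 groups of 1 gene's values, 1 held an array far from the others. E2f1 stood at 1.27 on mutant array 6, where the other mutant arrays ran from 2.52 to 2.80; the gap was 0.818 of the group's range. The gap is past Dixon's limit for 6 values, which about 1 in 20 groups passes by chance; how rare a gap of this size is was not computed. Mutant array 6 was also the lowest mutant array for 5 of the 7 genes, E2f1 included. Without it the difference of E2f1 was 1.53 (limma adjusted p = 0.0807).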

How the results depend on the processing

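Over all rows 404 passed (129 higher, 31.9% of calls); centring each array on its median gave 611 (64.2% higher) and quantile normalization 460 (63.0% higher), and centring moved the median difference from -0.13 to 0.07. The other counts of rows were 187 without a dye term, 132 with zeros and 1-channel values kept, 655 with array weights, 2 in Cy3 alone, 33 without wildtype arrays 5 and 6, 3 without any wildtype Cy5 array, and 117 to 549 without single arrays. Of the 7 genes, 1 passed; 3 passed after centring or with array weights (RnrL, Orc1 and E2f1) and 3 after quantile normalization (RnrL, Orc1 and Orc2), 2 with a ratio needed on all 12 arrays (5 tested) or in Cy5 alone, 0 without a dye term, in Cy3 alone or without those wildtype arrays, and 1 to 2 without single arrays. Leaving out wildtype array 1 added E2f1, and wildtype array 2 added Orc1. Of the 53 related genes 6 passed; the counts were 3 without a dye term, 2 with all values kept, 21 centred, 11 by quantile normalization or in Cy5 alone, 14 with weights or with a ratio on all 12 arrays, 0 in Cy3 alone or without those wildtype arrays, and 2 to 12 without single arrays (2 without mutant array 6 or wildtype array 5, 12 without wildtype array 2). The cause was not tested.

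RnrL kept its call without each single array (adjusted p from 0.0166 to 0.0465). Its adjusted p over all alternatives ran from 0.0117 to 0.319, with differences from 0.83 to 2.08. Reversed signs were Orc2 with 1-channel values kept (-2.02) and PCNA in Cy3 alone or without the wildtype Cy5 arrays (-0.067). Ratios over the reference kept their call in all alternatives run, except Orc2 with 1-channel values kept (4.10 in the mutant, adjusted p = 0.235; 6.12 in wildtype, adjusted p = 0.0892). With the replicate number as a block 106 rows, 0 of the 7 genes and 1 related gene passed (RnrL 1.46, adjusted p = 0.0623). The numbers were not taken as pairs: deviations of same-numbered arrays correlated at 0.0636 to 0.285, and 5 of 12 arrays correlated best with their own number.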
